A study of Homo sapiens with 4 samples.

Results

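Cyclins are the regulatory subunits of the cyclin-dependent kinases (CDKs), and their periodic appearance and destruction moves a cell from one phase of its cycle to the next. Here 10 cyclin genes were followed in spheroids of MV3 melanoma cells, namely the D-type cyclins CCND1, CCND2 and CCND3, the E-type cyclins CCNE1 and CCNE2, the A-type cyclin CCNA2, the B-type cyclins CCNB1 and CCNB2, and the G-type cyclins CCNG1 and CCNG2. They were taken by gene symbol from a count table of 56304 gene rows, in which 10 of 10 were found, and all 10 passed the filter on low counts together with 15529 genes in all. MV3 is an established, highly metastatic human melanoma line, here carrying H2B-GFP, a fluorescent histone that labels chromatin, in both zones. Spheroids of 50000 cells were kept in collagen I until day 2 and dissected under the microscope. A 1 mm biopsy punch removed the core and a 3 mm punch the invasion zone around it, and bulk RNA was sequenced as replicates 1 and 2 of each zone. The labels name no treatment for either zone. All 4 libraries come from a single cell line, the punch was vertical so that invading cells above or below the core could enter the core sample, and the number of spheroids behind a library is not given in the sources used here. Nothing in the labels says that the libraries of a zone came from separate cultures, so the p-values measure only the spread between these libraries.

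D-type cyclins are produced in response to growth factors and activate CDK4 and CDK6 in G1 phase, which starts the phosphorylation of the retinoblastoma protein. E-type cyclins activate CDK2 at the entry into S phase, cyclin A2 works with CDK2 in S phase and with CDK1 later, and the B-type cyclins with CDK1 drive mitosis. The G-type cyclins stand outside this sequence. CCNG1 is a target gene of p53, and CCNG2 is a target of FOXO factors whose RNA is known to be high in cells that leave the cycle. In bulk RNA, a lower share of cells in a phase and less cyclin RNA per cell cannot be told apart.

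The promoters of the 3 S phase and mitotic cyclins are shown first because these 3 genes had zone differences of like size, and those of the G-type pair because CCNG2 is set against CCNG1 further on. A promoter window, 250 bases before to 50 bases after the transcription start, was held in the RefSeq sequences (GRCh38.p14) for 7 of the 10 genes, which leaves out CCND1, CCND2 and CCNE2. The 160 bases just before the start are printed on the strand of the gene. Capitals mark the letters CCAAT or their reverse complement ATTGG (the CCAAT box, known as a binding site of NF-Y) in all but CCNG2. In CCNA2 and CCNB2, capitals also mark TTTGAA or CTTGAA on either strand, forms of the cell cycle genes homology region (CHR). In CCNG2 they mark ACGTG on either strand, the core letters of a hypoxia response element. These letters are marked in CCNG2 only, and a match within the printed bases of CCNB2 is left in lower case.

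CCNA2 (chr4:121823884-121824043, minus strand): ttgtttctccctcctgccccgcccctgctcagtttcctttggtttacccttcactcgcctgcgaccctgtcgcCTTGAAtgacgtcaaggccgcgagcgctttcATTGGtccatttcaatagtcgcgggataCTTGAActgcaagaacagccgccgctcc
CCNB1 (chr5:69166990-69167149, plus strand): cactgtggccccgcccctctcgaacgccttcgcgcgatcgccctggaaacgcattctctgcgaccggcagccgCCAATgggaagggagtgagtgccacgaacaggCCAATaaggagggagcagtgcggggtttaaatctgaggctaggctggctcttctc
CCNB2 (chr15:59104986-59105145, plus strand): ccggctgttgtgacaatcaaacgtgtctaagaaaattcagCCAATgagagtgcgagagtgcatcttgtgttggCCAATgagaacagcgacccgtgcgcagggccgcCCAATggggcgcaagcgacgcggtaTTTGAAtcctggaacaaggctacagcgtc
CCNG1 (chr5:163437411-163437570, plus strand): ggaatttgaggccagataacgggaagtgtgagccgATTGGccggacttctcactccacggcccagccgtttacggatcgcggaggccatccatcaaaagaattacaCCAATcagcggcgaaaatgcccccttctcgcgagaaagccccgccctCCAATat
CCNG2 (chr4:77157047-77157206, plus strand): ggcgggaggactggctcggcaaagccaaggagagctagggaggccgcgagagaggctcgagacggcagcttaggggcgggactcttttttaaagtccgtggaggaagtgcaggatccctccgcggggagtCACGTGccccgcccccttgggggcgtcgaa

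Over the whole window of 300 bases, CCAAT occurred 4 times in CCNB2, 4 times in each of the 2 overlapping windows of CCNG1, 2 times in CCNB1 and 1 time in CCNA2. It occurred 1 time in 2 of the 3 windows of CCND3 and not in CCNE1 or CCNG2. Among all 35116 promoter windows, 34.6% held at least 1 CCAAT, 10.8% at least 2 and 3.26% at least 3. The CHR letters occurred 2 times in CCNA2 and 1 time in CCNB2, and 23.9% of all windows held at least 1. CCNA2 and CCNB2 share the order of a CCAAT box followed by CHR letters close to the start, where the CHR begins at position -28 in CCNA2 and -29 in CCNB2, counted from the start. ACGTG was found in CCNG2 and in CCNB1 as the palindrome CACGTG, which counts on both strands. It was also found in CCNB2, and 21.4% of all windows held it. The FOXO letters GTAAACA were not in the CCNG2 window and occurred only in 1 of the 3 windows of CCND3, against 3.42% of all windows. The E2F letters TTTCCCGC, TTTGGCGC, TTTCGCGC or TTTGCCGC were in none of the members' windows and in 3.31% of all windows. These matches describe letters and say nothing of binding.

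The libraries held between 11789243 and 37591782 counts, and both replicate 2 libraries were the shallower ones, so replicate number and depth cannot be told apart. Mitochondrial genes took 1.06% to 1.72% of the counts and the 10 most abundant genes 4.25% to 5.58%. Of 8 melanocyte lineage markers, SOX10 and TYR had no count in any library, and MITF, the highest, had between 1.70 and 3.39 CPM (a gene's count scaled by the library's total count), so most defining markers of the lineage were at or near 0 in these melanoma libraries. Of 7 markers of leukocytes, endothelium and epithelium, only PECAM1 passed the count filter, at 17.8 and 7.48 CPM in the core and 5.21 and 0.933 CPM in the invasion zone. The other 6 stayed at 0.426 CPM or less in each library. The summed level of these markers ranged from 7.68 to 18.5 CPM in the core and from 1.02 to 5.91 CPM in the invasion zone, and its part in the cyclin differences was not tested.

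The comparison asked which cyclins differed between invading cells and the cells left in the core. The S phase and mitotic cyclins CCNA2, CCNB1 and CCNB2 and the E-type cyclin CCNE2 were higher in the invasion zone by 2.23-fold to 2.53-fold, whereas CCNG2 was lower by 4.40-fold. CCND1 and CCNE1 were higher by less than 2-fold, CCNG1 was lower by 1.34-fold, and CCND2 and CCND3 passed in none of the fits run. Between the zones the 4 libraries did not overlap for 9 of the 10 genes, with 6 higher in the invasion zone and 3 lower. Among all 15529 genes, 28.3% had both invasion zone libraries above both core libraries and 30.0% had both below. The count of 3 lower cyclins was thus near the background. CCND3 was the one gene whose zones overlapped. The direction was the same within both replicates for 10 of 10, a share that was not computed over all genes.

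By edgeR's quasi-likelihood test without a replicate term, a gene was called at a Benjamini-Hochberg adjusted p under 0.05 and a change of at least 2-fold. This test called 0 cyclins higher and 0 lower, as it called 0% of all genes in each direction, with a smallest adjusted p of 0.128 over all genes. When p was left unadjusted and the 2-fold minimum was kept, 4 cyclins were higher and 1 was lower at the 0.05 level (2.92% and 5.85% of all genes), namely CCNE2, CCNA2, CCNB1, CCNB2 and CCNG2. Limma voom called none of the 10 as well, and 0 of all genes in each direction. DESeq2 called these 5, among 353 genes higher and 534 lower of all 15529. When edgeR took the replicate as a block, these 5 genes were called again, 4 higher (3.41% of all genes) and 1 lower (7.06%). Without a fold minimum, the block fit passed 6 cyclins as higher and 2 as lower (19.4% and 19.4% of all genes), which added CCND1, CCNE1 and CCNG1. With the block, the counts of lower cyclins, 1 with the fold minimum and 2 without it, were near the background. CCNA2 and CCNG2 are among the genes that the study named from these libraries, so their part in these counts is not independent evidence.

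**Figure D1:**
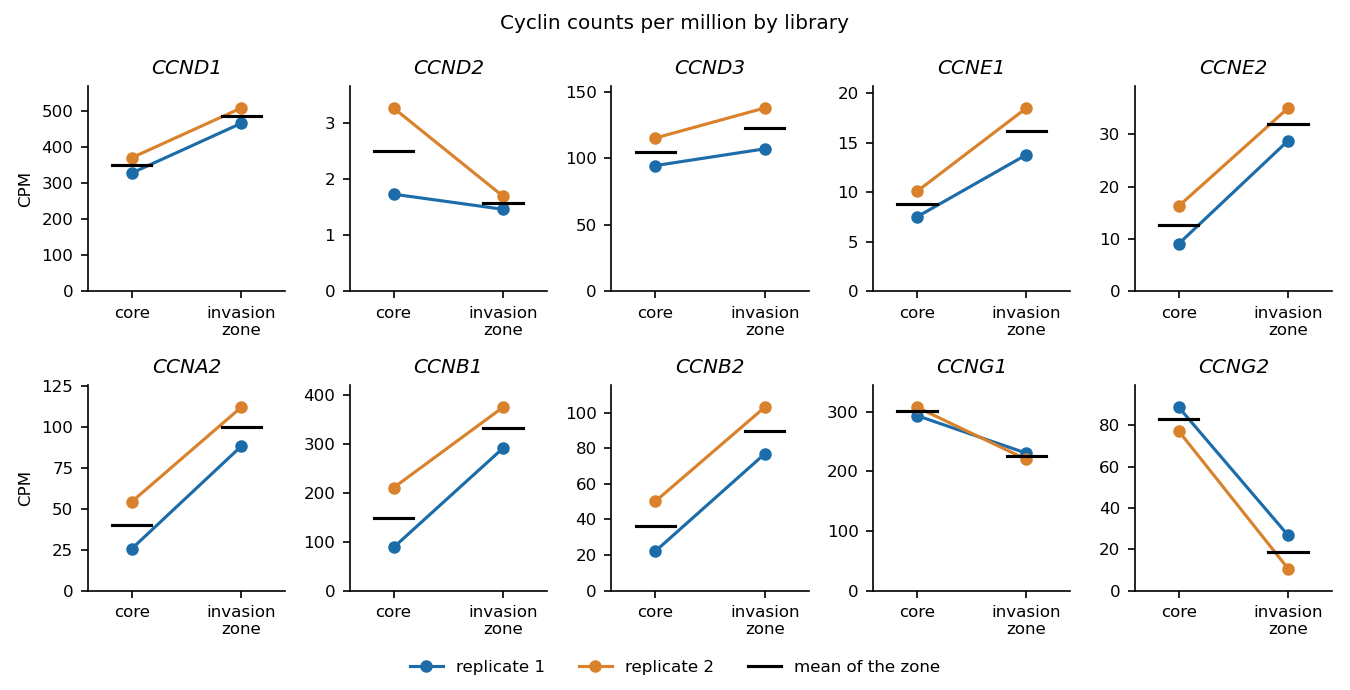
CPM (vertical axes from 0, one scale per gene) of the 10 cyclins in the core and the invasion zone, with a line joining the libraries of a replicate number and a black bar at the mean of the 2 libraries of a zone. The lines of CCNE2, CCNA2, CCNB1 and CCNB2 climb in both replicates and those of CCNG2 drop, with the invasion zone at 26.7 and 10.5 CPM.

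Among the D-type cyclins, CCND1 (cyclin D1, a partner of CDK4 and CDK6) had 329 and 371 CPM in the core and 467 and 509 CPM in the invasion zone (replicates 1 and 2). The invasion zone exceeded the core in each library, and replicates of a zone differed by at most 1.13-fold. The log2 fold change was 0.47 (standard error 0.14, 95% interval 0.11 to 0.83, adjusted p = 0.155), and with the replicate block it was 0.47 (standard error 0.07, adjusted p = 0.00102). CCND1 (ENSG00000110092) lies on chromosome 11 of GRCh38, 69641156 to 69654474, and 497 of its 4761 exonic bases are shared with LTO1 on the opposite strand.

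CCND3 (cyclin D3, with the same kinase partners) had 94.6 and 115 CPM in the core and 107 and 138 CPM in the invasion zone. The zones overlapped, since core replicate 2 was above invasion zone replicate 1. Its log2 fold change was 0.21 (95% interval -0.25 to 0.67, adjusted p = 0.514, and 0.0732 with the block), an interval that leaves room for no difference and for one of less than 2-fold. CCND3 (ENSG00000112576) lies on chromosome 6, 41934934 to 42050357.

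CCND2 (cyclin D2, the remaining D-type cyclin) had few reads, with 63 and 49 counts in the core and 55 and 20 counts in the invasion zone, or 1.73 and 3.27 CPM against 1.46 and 1.70 CPM. The invasion zone libraries were the lower ones, but the gap between invasion zone replicate 2 and core replicate 1 was only that between 1.70 and 1.73 CPM. The log2 fold change of -0.66 had a 95% interval from -1.80 to 0.49 (adjusted p = 0.425, and 0.247 with the block), so a difference in either direction was not detectable at this depth. CCND2 (ENSG00000118971) lies on chromosome 12, 4269771 to 4305353, and 999 of its 7988 exonic bases also belong to genes on its own strand and 268 to genes on the other, which makes so low a count less certain.

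Per kilobase of the canonical transcript, CCND1 made up 62.3% and 60.4% of the D-type level in the core and 67.4% and 63.7% in the invasion zone. CCND3 supplied 37.5% and 39.3% in the core and 32.4% and 36.1% in the invasion zone, and CCND2 at most 0.347% in each library. The D-type pool was thus made of CCND1 and CCND3 in both zones, and the CCND1 share was higher in the invasion zone in both replicates. The summed D-type level was 124 and 145 CPM per kilobase in the core and 163 and 189 CPM per kilobase in the invasion zone.

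CCNE1 (cyclin E1, the partner of CDK2 at the G1 to S transition) had 7.51 and 10.1 CPM in the core and 13.8 and 18.5 CPM in the invasion zone. The zone difference was the same in both replicates, with a log2 ratio of 0.88 in each, and the invasion zone was above the core in each library. EdgeR gave a log2 fold change of 0.87 (standard error 0.26, adjusted p = 0.152), and 0.86 with the block (standard error 0.16, adjusted p = 0.00270), under the 2-fold limit in both fits. CCNE1 (ENSG00000105173) lies on chromosome 19, 29811991 to 29824312.

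CCNE2, the second E-type cyclin, had 9.08 and 16.3 CPM in the core and 28.8 and 35.0 CPM in the invasion zone. No invasion zone value lay within the core values, and the core libraries differed by 1.79-fold from each other. Its log2 fold change was 1.34 (standard error 0.31, adjusted p = 0.131), and 1.39 with the block (standard error 0.16, adjusted p = 0.000264). CCNE2 (ENSG00000175305) lies on chromosome 8, 94879770 to 94896678, and 1633 of its 4397 exonic bases are shared with genes on the opposite strand, among them INTS8. The strand setting of the counting is not given in the sources used here, so some of these counts may belong to the neighbours.

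Per kilobase, CCNE2 made up 46.9% and 54.1% of the E-type level in the core and 60.4% and 58.1% in the invasion zone. Its ratio to CCNE1 in CPM was 1.21 and 1.62 in the core and 2.09 and 1.89 in the invasion zone. Both invasion zone libraries had the higher ratio, by 0.78 log2 units within replicate 1 and by 0.24 within replicate 2. The exact two-sided permutation test gave p = 0.333 for this ratio, the smallest it can give with 4 libraries.

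CCNA2 encodes cyclin A2, which acts in S phase and G2. It had 25.5 and 54.3 CPM in the core and 88.3 and 112 CPM in the invasion zone. All invasion zone values exceeded the core values, and the core libraries differed from each other by 2.13-fold, the invasion zone libraries by 1.27-fold. The log2 fold change was 1.33 (standard error 0.36, adjusted p = 0.142), and 1.41 with the block (standard error 0.16, adjusted p = 0.000242). CCNA2 (ENSG00000145386) lies on chromosome 4, 121816444 to 121823883, and shares 254 of its 2748 exonic bases with EXOSC9 on the opposite strand.

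CCNB1 (cyclin B1, the main mitotic partner of CDK1) had 88.0 and 210.0 CPM in the core and 291 and 375 CPM in the invasion zone. The zones did not overlap, although core replicate 2 lay nearer to invasion zone replicate 1 than to core replicate 1 in log2 terms. The same held for CCNA2 and CCNB2, and by a small margin for CCNE2. EdgeR gave a log2 fold change of 1.16 (standard error 0.41, adjusted p = 0.176), and 1.27 with the block (standard error 0.17, adjusted p = 0.000572). CCNB1 (ENSG00000134057) lies on chromosome 5, 69167135 to 69178245.

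CCNB2 (cyclin B2, the second mitotic B-type cyclin) had 22.0 and 50.1 CPM in the core and 76.8 and 103 CPM in the invasion zone. The zones did not overlap, and as for CCNB1 core replicate 1 was the lowest library. The log2 fold change was 1.32 (standard error 0.40, adjusted p = 0.154), and 1.42 with the block (standard error 0.16, adjusted p = 0.000267). CCNB2 (ENSG00000157456) lies on chromosome 15, 59105126 to 59125045. The ratio of CCNB2 to CCNB1 in CPM was 0.250 and 0.238 in the core and 0.264 and 0.275 in the invasion zone, a narrow range. Per kilobase CCNB1 was 72.7% to 75.5% of the B-type level in the 4 libraries.

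The size of the zone difference was not the same in both replicates. Within replicate 1, the invasion zone was 3.46-fold above the core for CCNA2, 3.31-fold for CCNB1, 3.49-fold for CCNB2 and 3.17-fold for CCNE2. Within replicate 2 the same values were 2.06-fold, 1.78-fold, 2.06-fold and 2.15-fold. For 6 of the 10 genes, the 95% intervals from counting error of the log2 ratios in the 2 replicates did not overlap, namely these 4, CCNG1 and CCNG2. For CCND1, CCND2, CCND3 and CCNE1 they overlapped. This share was not computed over all genes, and counting intervals narrow as counts rise. The log2 ratios of CCNG1 differed by only -0.13 between replicates yet stood apart, while those of CCND2, with few counts, differed by -0.70 and overlapped. The split is therefore not a trait of these 6 genes. Counting intervals do not cover the variation between spheroids or preparations, and with 1 library per zone and replicate the difference between replicates has no test.

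For the cyclins of S phase and mitosis the core libraries differed more from each other than the invasion zone libraries did. Core replicate 2 held 2.13-fold the CCNA2 level of core replicate 1, 2.39-fold for CCNB1 and 2.27-fold for CCNB2, against 1.27-fold, 1.29-fold and 1.34-fold between the invasion zone libraries. Without core replicate 1, the log2 fold change of CCNA2 was 0.90, that of CCNB1 0.68, that of CCNB2 0.86 and that of CCNE2 0.98. Without core replicate 2 the same values were 1.95, 1.90, 2.01 and 1.79. CCNB1 was also under 2-fold without invasion zone replicate 2, at 0.97. CCNE1 was above 2-fold without invasion zone replicate 1, at 1.06, and without core replicate 2, at 1.08. CCNG2 was more than 2-fold lower in each of these 4 fits. In a zone left with 1 library, that library is assumed to vary like those of the other zone.

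**Figure D2:**
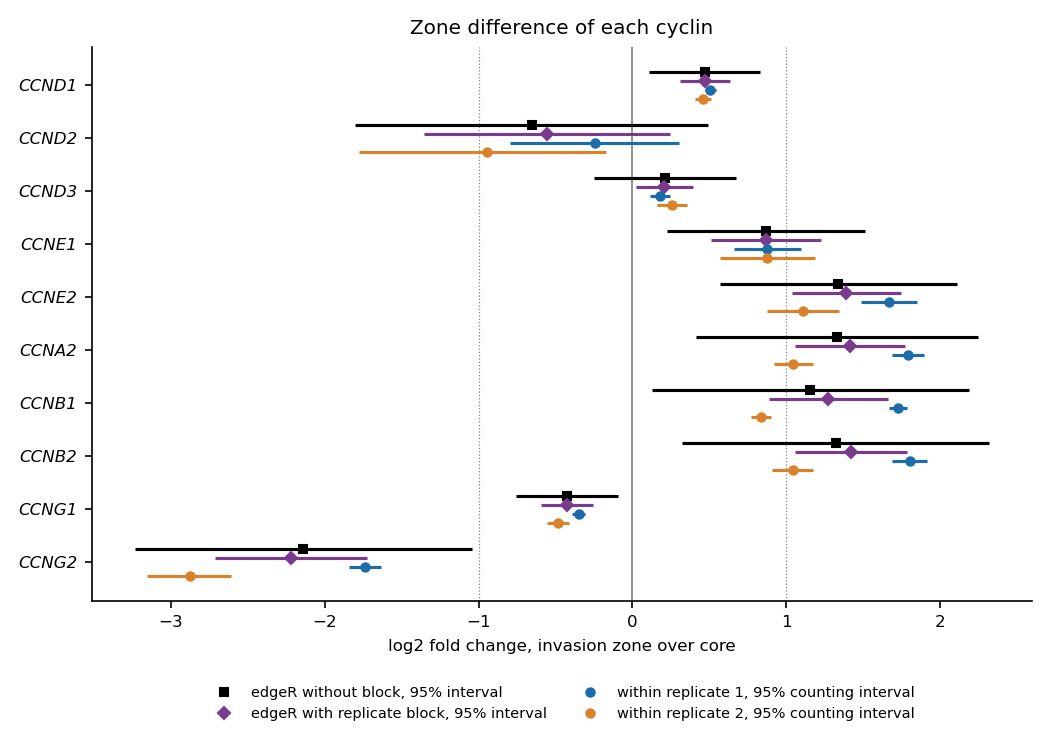
Invasion zone against core as log2 fold change (horizontal axis) for each cyclin, from edgeR without and with the replicate block with 95% intervals, and within each replicate with 95% intervals for counting error only, dotted lines marking 2-fold. The replicate 1 and replicate 2 points of CCNA2, CCNB1, CCNB2, CCNE2 and CCNG2 stand apart, while those of CCNE1 coincide at 0.88.

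CCNG1 (cyclin G1) had 294 and 308 CPM in the core and 231 and 220.2 CPM in the invasion zone. It was the steadiest member, with replicate 2 at 1.05-fold the level of replicate 1 in the core and 0.955-fold in the invasion zone, and the invasion zone libraries lay below the core libraries. EdgeR gave a log2 fold change of -0.43 (standard error 0.13, 95% interval -0.76 to -0.09, adjusted p = 0.156), and -0.43 with the block (standard error 0.07, adjusted p = 0.00228), which is less than 2-fold. CCNG1 (ENSG00000113328) lies on chromosome 5, 163437569 to 163446151.

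CCNG2 (cyclin G2) had 88.7 and 77.2 CPM in the core and 26.7 and 10.5 CPM in the invasion zone. The core libraries were alike and the invasion zone libraries were not, since invasion zone replicate 2 rested on 124 counts and was at 0.395-fold the level of replicate 1. The core was 3.33-fold above the invasion zone within replicate 1 and 7.34-fold within replicate 2. The log2 fold change was -2.14 (standard error 0.44, 95% interval -3.23 to -1.04, adjusted p = 0.128), and -2.22 with the block (standard error 0.22, adjusted p = 0.000159). With each library left out in turn it lay between -3.00 and -1.64, more than 2-fold in each case. CCNG2 (ENSG00000138764) lies on chromosome 4, 77157207 to 77433388, in an annotation that counts 7416 exonic bases, none of them shared with another gene.

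Set against CCNG1 within each library, the log2 ratio of CCNG2 to CCNG1 (CPM plus 0.5) was -1.72 and -1.99 in the core and -3.09 and -4.32 in the invasion zone. The zones did not overlap, and a ratio within a library does not depend on its scaling beyond the small constant added. The mean was -1.86 ± 0.19 (SD, n = 2) in the core and -3.71 ± 0.87 in the invasion zone, a difference of -1.85. An exact two-sided permutation test over the 4 libraries gave p = 0.333, which is the smallest p that this design allows. As CPM ratios, CCNG2 stood at 0.302 and 0.251 of CCNG1 in the core and at 0.116 and 0.0478 in the invasion zone. Both G-type genes were lower in the invasion zone, and CCNG2 by the larger amount in both replicates, the log2 ratio being -1.37 and -2.34 units further down than in the core of the same replicate.

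**Figure D3:**
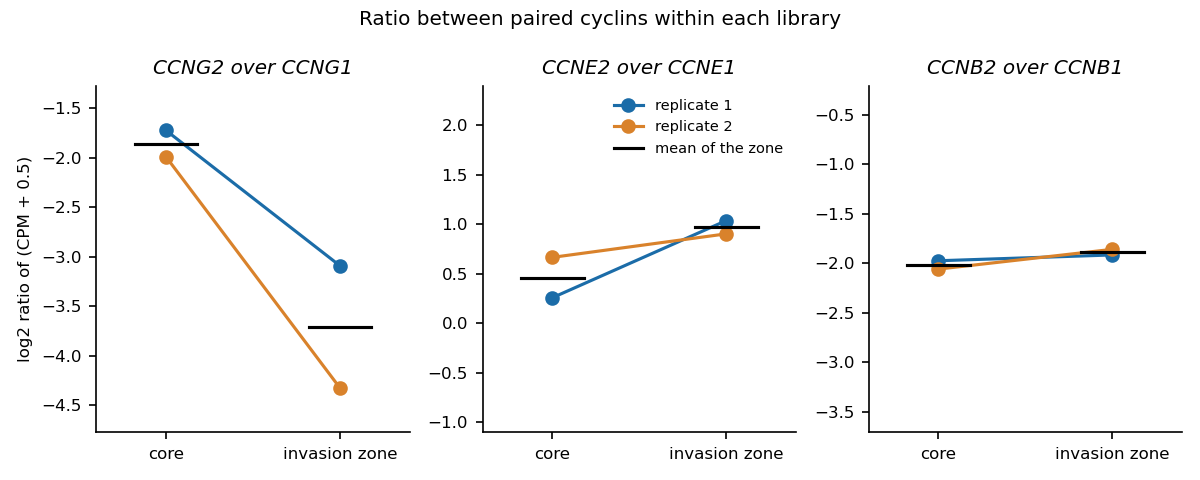
Log2 ratio of CCNG2 to CCNG1, CCNE2 to CCNE1 and CCNB2 to CCNB1 within each library (vertical axes span the same number of log2 units), with lines joining the libraries of a replicate number and black bars at the mean of a zone. CCNG2 to CCNG1 drops from -1.86 to -3.71 on average, while CCNB2 to CCNB1 stays between -2.06 and -1.86 in all 4 libraries.

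Ordered by level per kilobase, the core means were led by CCNG1 (123 ± 4.05 CPM per kilobase, SD, n = 2), CCND1 (82.5 ± 7.10), CCNB1 (73.4 ± 42.5) and CCND3 (51.8 ± 7.25). CCNB2, CCNG2 and CCNA2 followed at 24.2 ± 13.3, 15.2 ± 1.49 and 14.5 ± 7.41, and CCNE2, CCNE1 and CCND2 came last at 4.74 ± 1.91, 4.50 ± 0.930 and 0.385 ± 0.167. In the core, CCND1 and CCNB1, CCNB1 and CCND3, CCNB2 and CCNG2, CCNG2 and CCNA2, and CCNE2 and CCNE1 overlapped between libraries, so their order is not beyond their spread. In the invasion zone CCNB1 came first (164 ± 29.2), before CCND1 (115 ± 7.08) and CCNG1 (92.2 ± 3.01). CCND3 (60.5 ± 10.7) and CCNB2 (60.4 ± 12.4) overlapped, and CCNA2 (36.5 ± 6.14), CCNE2 (11.9 ± 1.65) and CCNE1 (8.26 ± 1.71) followed without overlap. CCNG2 (3.40 ± 2.09) thus stood at rank 9 of 10 in the invasion zone and at rank 6 in the core, with only CCND2 (0.243 ± 0.0254) below it.

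The genes most alike in pattern were sought as the 3 with the smallest distance in centred log2 CPM over the 4 libraries, among 9543 candidates with a mean of at least 10 CPM. With 4 points shared by all genes, such a list is a description only. For CCND1 they were RBMS3, ZNF551 and TMEM237, for CCNA2 they were POC1A, NEIL3 and the mitotic kinesin gene KIF2C, and for CCNG2 they were KLHL24, CA11 and GPNMB. POC1A had 7.37 and 15.8 CPM in the core and 25.5 and 32.7 CPM in the invasion zone, the same low core replicate 1 as CCNA2. KLHL24 had 77.5 and 78.6 CPM in the core and 25.4 and 10.2 CPM in the invasion zone. The distance to the nearest gene was 0.00898 for CCNA2 and 0.0143 for CCND1, and 0.159 for CCNG2.

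The kinases that the cyclins activate were all higher in the invasion zone, and the median of their 4 log2 fold changes was 0.91, while that of all tested genes was -0.01. All 4 lay above the core without overlap (28.3% of all genes), and 0 were called without the block and 1 with it (3.41% of all genes). CDK1, the mitotic kinase, had 91.1 and 188 CPM in the core and 315 and 417 CPM in the invasion zone (log2 fold change 1.39, standard error 0.36, adjusted p = 0.135, and 0.000113 with the block). CDK2, the partner of cyclins E and A, had a log2 fold change of 0.97, and CDK6 and CDK4, the partners of the D-type cyclins, 0.85 and 0.33.

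Of the 6 genes that activate cyclin-CDK complexes, 2 were called higher with the block (3.41% of all genes), 0 lower (7.06%) and 0 without it, and the median log2 fold change was 0.40. These were the phosphatases CDC25C, at 4.26 and 9.68 CPM in the core and 17.7 and 25.9 CPM in the invasion zone (log2 fold change 1.66), and CDC25A (1.33). CDC25A was named by the study from these libraries too. CDC25B, their relative, had a log2 fold change of -0.44 and overlapped between zones. Within replicates 1 and 2 it was lower in the invasion zone, with log2 ratios of -0.45 and -0.41. The edgeR fit with the block gave it an adjusted p of 0.00359, at less than 2-fold. The CDK-activating kinase CDK7, with cyclin H as its partner, had 0.07.

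Of the 12 genes that act in cyclin destruction or its control, 6 were called higher with the block (3.41% of all genes) and 0 lower (7.06%). Without it 0 were called in either direction, and the median log2 fold change was 0.93. The 6 were CKS1B, CKS2, CDC20, UBE2C, UBE2S and FBXO5, of which FBXO5 encodes an inhibitor of the anaphase-promoting complex. The list thus does not point in a single functional direction. CDC20, which directs the anaphase-promoting complex to cyclin B, had 63.5 and 175 CPM in the core and 247 and 393 CPM in the invasion zone (log2 fold change 1.42, and 1.56 with the block, adjusted p = 0.000166). UBE2C, a ubiquitin-conjugating enzyme of that complex, had 1.30. At the other end of the list, FZR1, the partner of the same complex in G1 phase, had a log2 fold change of -0.29, and AMBRA1, which targets the D-type cyclins, -0.27, and neither passed with the block (adjusted p = 0.0669 and 0.0812). FBXW7, which targets cyclin E, had -0.15.

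Among 17 other cyclins, 13 were tested, and 0 were called in either direction with or without the block, with a median log2 fold change of 0.23. CCNF (cyclin F, which takes part in cyclin destruction in G2) had the highest at 0.94, with 37.8 and 65.7 CPM in the core and 95.8 and 103 CPM in the invasion zone, and CCNJ followed at 0.75. CCNI and CCNL2 had the lowest at -0.63 and -0.35. With the edgeR block the log2 fold change of CCNF was 0.995 (standard error 0.15, adjusted p = 0.000935), so it missed the call only by falling just under the 2-fold limit. Without a fold minimum, 5 of the 13 passed as higher and 2 as lower with the block, where 19.4% of all genes passed in each direction, so the count of lower genes was near the background.

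The lists of genes regulated like the G-type cyclins were set beside them. Of 16 p53 targets other than CCNG1, 14 were tested, and the median log2 fold change was -0.34. With the block 3 were called lower (7.06% of all genes) and 1 higher (3.41%), and 0 without it, and the 1 higher gene of 14 was near the background. In 8 of the 14 the invasion zone was lower without overlap (30.0% of all genes), and in 1 it was higher (28.3%). TP53INP1 (-1.77) and FAS (-1.43) had the lowest values and AEN (1.34) and MDM2 (0.16) the highest. CDKN1A, the best-known p53 target and a CDK inhibitor, was at 29.1 and 33.6 CPM in the core and 25.6 and 37.2 CPM in the invasion zone, with overlap.

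Of 11 FOXO targets and quiescence genes other than CCNG2, 9 were tested, and their median log2 fold change was -0.97. With the block 4 were called lower (7.06% of all genes) and 1 higher (3.41%), and 0 without it. In 7 of the 9 the invasion zone was lower without overlap, as in 30.0% of all genes. TXNIP, an inhibitor of thioredoxin, had 99.9 and 71.8 CPM in the core and 9.79 and 12.8 CPM in the invasion zone (log2 fold change -2.95, standard error 0.25, adjusted p = 0.128, and 5.08e-05 with the block). PIK3IP1, an inhibitor of PI3K, had -1.92. The exceptions were GADD45A (1.18) and KLF6 (0.90), which were higher in the invasion zone. CDKN1B, which encodes the CDK inhibitor p27, had 32.8 and 27.6 CPM in the core and 17.4 and 13.6 CPM in the invasion zone (log2 fold change -0.97, adjusted p = 0.130, and 0.000436 with the block), and RBL2, the pocket protein p130, had -0.52. CDKN1A, CDKN1B, RBL2 and the other genes named outside the 2 highest and 2 lowest of a list were chosen after their values were seen.

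**Figure D4:**
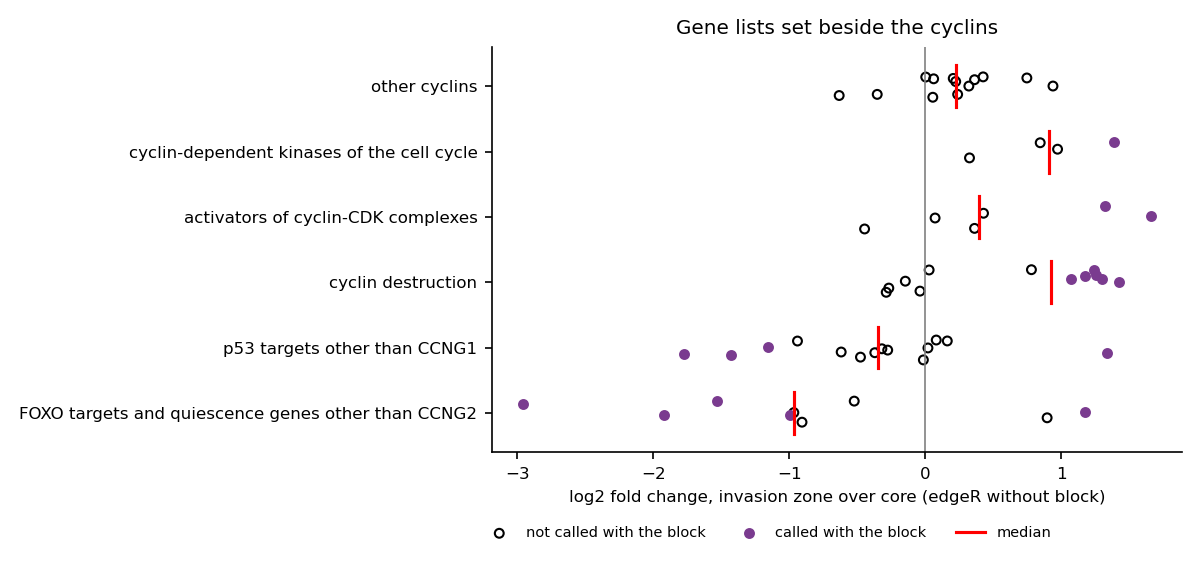
Invasion zone against core as log2 fold change (horizontal axis, edgeR without block) for the tested genes of 6 lists, filled where a gene was called with the replicate block, with a red line at the median. The kinases and the genes of cyclin destruction lie mostly to the right of 0, with medians of 0.91 and 0.93, and the FOXO and quiescence genes mostly to the left, with a median of -0.97.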

How the data were processed

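Bulk RNA was amplified with the SMARTer Ultra Low Input kit and sequenced for 2 core and 2 invasion zone libraries. The authors deposited raw read counts per gene. They removed ribosomal reads with Bowtie, filtered on quality, aligned with STAR to hg38 and counted unique reads with HTSeq-count, per the labels and the study's methods. Versions, annotation release and strand setting were not found in those sources. The 10 cyclins and the gene lists were chosen with earlier results of these data known, and 2 repeated rows, with 0 counts, were removed. CPM used the total count of each library. Intervals of single libraries cover counting error only, since amplified reads without molecular identifiers are not independent molecules.

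Genes passing filterByExpr (minimum count 10, minimum total 15) were tested with edgeR's quasi-likelihood test (4.0.16, TMM scaling, all 4 libraries, R 4.3.3), with limma voom (3.58.1) and DESeq2 (1.42.0) as alternatives, each also with the replicate number as a block. A call needed a Benjamini-Hochberg adjusted p under 0.05 and a 2-fold change. Named genes were all members, the 2 highest and 2 lowest of each list and the 3 nearest patterns of CCND1, CCNA2 and CCNG2, with exceptions stated beside them. Scripts were tested on simulated data that held no replicate effect, so that test does not bear on the choice between fits with and without the block. The dissection protocol takes the core and then its corresponding invasion zone, which is where the pairing of replicate numbers is read from, although the labels do not say that a number marks shared spheroids. Deviations of same-numbered libraries from the zone means correlated at 0.64 over 15529 genes. As a check only for a library deposited in duplicate, the counts of the replicates were compared (chi-square per degree of freedom 33.8 in the core and 31.9 in the invasion zone), and none was found. Lengths are those of the canonical transcripts of GENCODE release 44 (GRCh38), with 98.1% of the table's IDs found, and promoter windows come from RefSeq (GRCh38.p14). Figures were drawn with matplotlib 3.10.9.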

Additional observations from a re-analysis of the deposited data

How the results depend on the processing

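The direction of the 10 cyclins was the same in 130 of 130 values from fits other than the reported one. Those fits reused the same 4 libraries or a part of them, so the values are not independent and a reversal was unlikely. The test without a block called 0 genes and 0 cyclins. The number of cyclins called was 4 higher and 1 lower with the replicate block, limma voom with the replicate block, DESeq2, DESeq2 with the replicate block, an unadjusted p and no low-count filter. The number of all genes called higher and lower was 530 and 1097 with the replicate block, 575 and 1088 with limma voom and the block, 353 and 534 with DESeq2, 428 and 750 with DESeq2 and the block, 454 and 909 at an unadjusted p, and 427 and 846 of 32869 genes with no low-count filter. With limma voom without the block, no fold minimum, RLE or upper-quartile scaling, or a floor of 10 counts per library, 0 genes were called. With each library left out in turn, between 13 and 632 genes were called higher and between 125 and 1137 lower, and between 0 and 5 cyclins higher and 1 lower. The calls on CCNE2, CCNA2, CCNB1, CCNB2 and CCNG2 thus turned on the replicate block, the tool and the low-count filter, and the cause was not tested. The CCNG2 to CCNG1 difference was -1.85 with the replicate block, -1.89 without a pseudocount, and -2.47 to -1.23 with a library left out. With 2 libraries per zone, an exact permutation test cannot go below p = 0.333, and depth limits CCND2, with 20 to 63 counts per library.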
